A study of Mus musculus with 56 samples.

Results

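The genes of DNA replication and S phase were followed through a comparison of RNA amplification methods for microarrays in mouse cells. A list of 46 genes was drawn up by gene symbol, of which 44 had a probe among the 15063 named genes of the array; Mcm7, a subunit of the replicative helicase, and Uhrf1, which guides Dnmt1 to newly made DNA, had no named probe. The 44 genes were read by 49 probes. Total RNA came from OV, a cell line of mouse ovarian surface epithelium, and 3T3, a mouse fibroblast line, and both were put on one two-color array as Cy5 and Cy3 targets. Each of 7 comparisons of OV with 3T3 had 4 arrays, 2 with OV in Cy5 and 2 with OV in Cy3. Targets were amplified by SMART, a PCR method that adds a primer site by template switching, by SM37, a modified SMART, by GA, a global PCR of polyadenylated cDNA, or by IVTIII, a linear T7 method of 3 rounds, all from 10 ng of total RNA. SMART and GA were also used on 10 pg, and unamplified cDNA was made from 100 μg. Replica arrays set 2 amplifications of the same OV RNA, or of pooled neural progenitor cells, against each other, and 3 self-self arrays carried 1 OV target in both dyes. A log2 ratio below 0 means less signal in OV than in 3T3.

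Replication is prepared in G1, when the origin recognition complex, Cdc6 and Cdt1 load the MCM helicase on DNA. At the G1/S boundary E2F factors and cyclin E switch on many of these genes, and Cdc45 and the GINS complex turn the loaded helicase into a moving one. Primase and DNA polymerase alpha then start each strand, polymerases delta and epsilon extend it, and the sliding clamp Pcna with its RFC loader holds them in place. Ribonucleotide reductase, thymidylate synthase and related enzymes supply the nucleotides. Most of these transcripts rise at the entry to S phase, so their level in a bulk culture depends on how many cells are cycling.

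The promoters are shown because these genes share a known regulator in E2F. The letters TTTCCCGC, TTTCGCGC, TTTGCCGC and TTTGGCGC were searched on both strands in the 250 bases before each start of RefSeq (GRCm38.p6). Of the 46 genes, 38 had such a window and 9 of them (23.7%) held a match, against 583 of 27025 genes (2.16%) with a window. The other 8, Mcm4, Gins1, Gins2, Gmnn, Prim2, Pole, Rfc2 and Ccne2, had no entry. The matching genes were Mcm5, Mcm6, Mcm7, Cdc6, Orc1, Rfc3, Pola1, Dnmt1 and Uhrf1. CCAAT, also on both strands, stood in the windows of 24 of the 38 genes and of 37.5% of all genes. The last 160 bases before the start are given for 4 genes that were lower in OV in unamplified cDNA, 2 with a match and 2 without, with matches in capitals.
Mcm6: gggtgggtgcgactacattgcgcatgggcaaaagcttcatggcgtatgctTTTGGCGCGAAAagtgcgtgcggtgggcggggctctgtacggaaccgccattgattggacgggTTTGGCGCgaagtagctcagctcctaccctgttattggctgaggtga
Cdc6: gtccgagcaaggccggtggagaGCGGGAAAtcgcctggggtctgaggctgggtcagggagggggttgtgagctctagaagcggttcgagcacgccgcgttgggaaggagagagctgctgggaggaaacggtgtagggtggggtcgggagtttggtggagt
Prim1: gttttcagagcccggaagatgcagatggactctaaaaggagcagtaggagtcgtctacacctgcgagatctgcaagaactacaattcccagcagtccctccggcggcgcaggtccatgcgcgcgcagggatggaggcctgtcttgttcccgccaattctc
Pole2: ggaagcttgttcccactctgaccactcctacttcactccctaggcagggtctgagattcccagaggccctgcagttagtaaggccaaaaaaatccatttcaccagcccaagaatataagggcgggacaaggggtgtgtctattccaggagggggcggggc
In GRCm38.p6 the stretch of Mcm6 is chr1:128359706-128359865 on the minus strand and that of Cdc6 chr11:98907991-98908150 on the plus strand. That of Prim1 is chr10:128015055-128015214 on the plus strand and that of Pole2 chr12:69228191-69228350 on the minus strand. The stretch of Mcm6 held 3 matches, of which 2 overlap, and that of Cdc6 held 1, while those of Prim1 and Pole2 held none. In the whole windows a match was found in 3 of the 9 genes called lower in unamplified cDNA that had a window, and in 3 of the 26 that were tested and not called. A match is a description of letters and not a measured binding site.

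Values were the deposited log2 ratios, so signal and background of single spots are unknown, and depth can be read only from how many probes have a ratio. In the 7 comparisons of OV with 3T3 it ranged from 2303 to 5137 probes an array for SMART from 10 pg, and from 14198 to 18274 for unamplified cDNA. The labels give separate hybridizations, not separate cultures, so every p-value here measures the spread between arrays of the same 2 RNA pools. After turning, arrays of unamplified cDNA correlated with r of 0.784 to 0.892 over genes, whereas in SMART from 10 ng arrays 1 and 4 had r of -0.0687. The description of array 2 of GA from 10 ng is that of a replica array, and its dyes were taken from the source names. One source name of array 1 of IVTIII goes against its description, which was followed, and several labels give micrograms where the study's methods give nanograms. The direction is the likely one: Cdkn2a, a locus often lost from 3T3, was higher in OV by 1.58 ± 0.11 in unamplified cDNA (SD, n = 4). Of the OV markers measured there, 6 of 9 were called higher and 1 lower, the keratin Krt18 at -0.75 ± 0.25. Of 6 fibroblast markers 2 were called lower, led by Prrx1 at -3.33 ± 0.75, and 2 collagens, Col1a1 and Col3a1, were called higher. The median of the measured OV markers was 1.065, 0.45, 0.90 and 0.68 in SMART, SM37, GA and IVTIII from 10 ng. From 10 pg it was 1.005 in SMART and -0.26 in GA. In GA from 10 pg 4 of 6 OV markers were below 0 on all arrays and none was called. The markers thus did not bear out the direction in that target.

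In unamplified cDNA, 42 of the 44 genes had a value on all 4 arrays, and the replication genes lay mostly on the 3T3 side. In bulk RNA fewer cells in S phase and less RNA per cell cannot be told apart. LOD, the log odds of a difference in limma, was above 0 for 11 of them, all 11 lower in OV. Over all 10185 genes tested 7.3% were called lower and 8.81% higher. The median of the 42 genes was -0.49, against -0.0038 over all genes, and 36 of them (85.7%) had a mean below 0, against 50.5% of all genes. At an adjusted p under 0.05 (limma, Benjamini-Hochberg) 31 were lower and 4 higher, beside 24.8% and 24% of all genes, and at an unadjusted p under 0.05 the counts were 32 and 4. For counts at an unadjusted p, here and below, no share over all genes is given. They therefore cannot be read as particular to the list. The LOD count fell to 3 without array 1, 6 without array 3 and 5 without array 4, and Prim1 and Prim2 alone were called whichever array was left out. Median ratios of the members by array were -0.58, -0.27, -0.60 and -0.47 in arrays 1 to 4, so that array 2 gave the smallest shift.

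**Figure D1:**
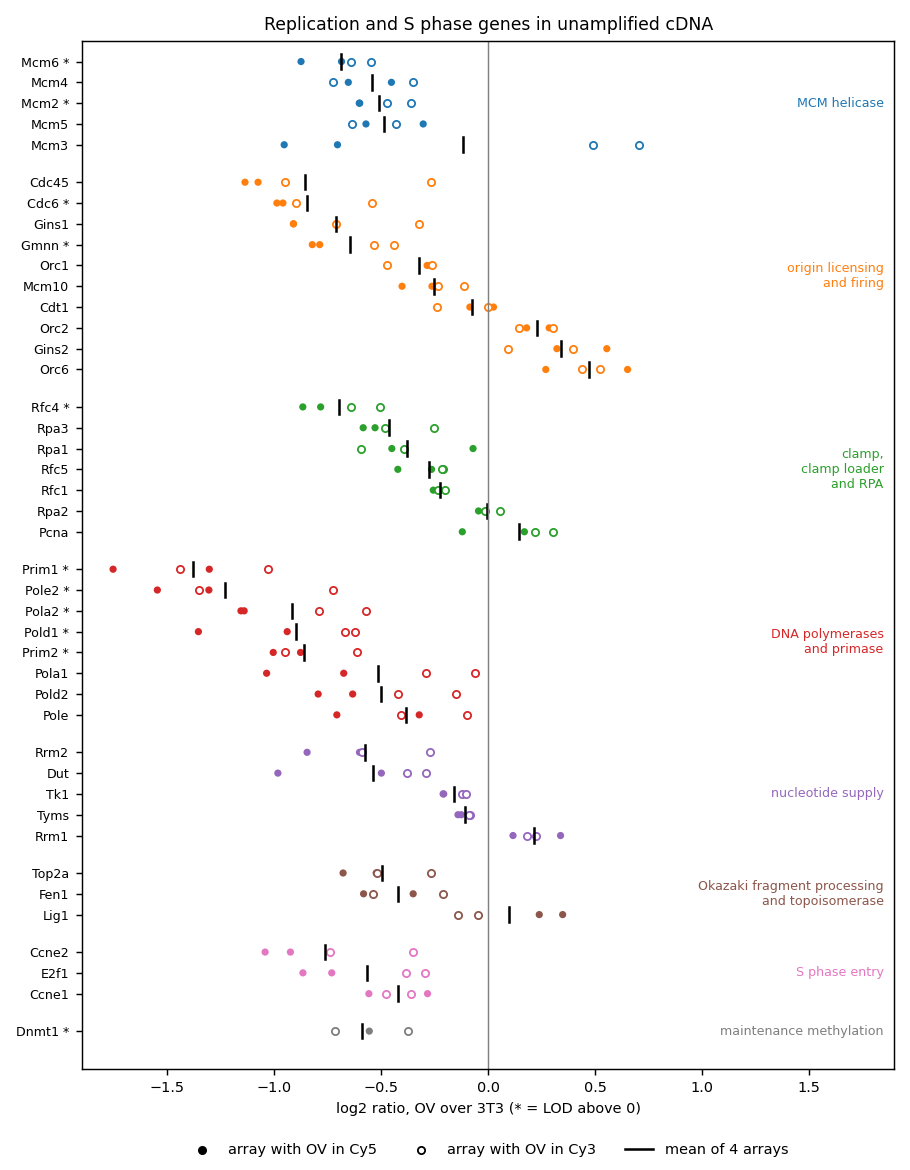
Log2 ratios of OV over 3T3 in unamplified cDNA for the 42 genes with 4 values, grouped by role; filled points are arrays with OV in Cy5, open points arrays with OV in Cy3, and black ticks the means. Every polymerase and primase gene lies below 0 on all 4 arrays, Orc2, Orc6, Gins2 and Rrm1 lie above it, and Mcm3 splits by dye.

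Genes that synthesize the strands were the lowest group. All 8 measured polymerase and primase genes were below 0 on all 4 arrays, 5 were called lower, and their median was -0.88. Prim1, the catalytic subunit of primase, gave -1.75, -1.03, -1.30 and -1.44, a mean of -1.38 ± 0.30 (SD, n = 4; adjusted p = 4.52e-04, limma). It was the lowest of all 42 genes and stayed below -1 on each array. Pole2, an accessory subunit of polymerase epsilon, gave -1.31, -0.73, -1.55 and -1.35, a mean of -1.23 ± 0.35 (adjusted p = 9.26e-04, limma). Pola2, the regulatory subunit of polymerase alpha, gave -1.16, -0.57, -1.14 and -0.79, a mean of -0.92 ± 0.28. In Pole2 and Pola2 the array nearest to 0 was array 2. Pold1, the catalytic subunit of polymerase delta, averaged -0.90 ± 0.34 and Prim2, the large primase subunit, -0.86 ± 0.17. The 3 not called were Pola1, Pold2 and Pole, with means from -0.52 to -0.38.

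Among the helicase genes, all 5 means were below 0 and 2 were called lower. Mcm6 gave -0.69, -0.55, -0.88 and -0.64, a mean of -0.69 ± 0.14 (adjusted p = 8.33e-04, limma). Mcm2 gave -0.60, -0.36, -0.60 and -0.47, a mean of -0.51 ± 0.12. Both had 4 arrays on the same side with no value near 0. Mcm4 at -0.55 ± 0.17 and Mcm5 at -0.48 ± 0.15 were of like size but had an LOD below 0. Mcm3 had a mean of -0.12 ± 0.84, and its 4 arrays, -0.95, 0.71, -0.70 and 0.49, were below 0 with OV in Cy5 and above 0 with OV in Cy3.

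Origin licensing and firing genes went both ways. Of 10 genes 7 had a mean below 0 and 2 were called lower. Cdc6, the loader of the helicase, gave -0.99, -0.54, -0.96 and -0.90, a mean of -0.85 ± 0.21 (adjusted p = 8.71e-04, limma). Gmnn, geminin, the inhibitor of Cdt1 that is present from S phase on, gave -0.79, -0.53, -0.82 and -0.44, a mean of -0.65 ± 0.19. All 4 arrays of both genes were below -0.4. Cdc45, a part of the active helicase, averaged -0.86 ± 0.40 and was not called, with arrays from -1.14 to -0.27. Orc6, the smallest subunit of the origin recognition complex, had the highest mean of all 42 genes, 0.47 ± 0.16 with arrays of 0.65, 0.44, 0.27 and 0.52, and its LOD was below 0 at an adjusted p of 0.00395 (limma). Gins2 at 0.34 ± 0.19 and Orc2 at 0.23 ± 0.08 were also above 0 on all 4 arrays, and neither was called. Cdt1, the other licensing factor, was near 0 with a mean of -0.07 ± 0.12.

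The clamp, its loader and the single-strand binding protein RPA held 7 measured genes, 1 called lower. Rfc4, a subunit of the loader, gave -0.87, -0.51, -0.78 and -0.64, a mean of -0.70 ± 0.16 (adjusted p = 9.84e-04, limma). Pcna, the clamp itself, averaged 0.14 ± 0.18, and Rpa2 lay between -0.04 and 0.06 on all arrays. Rfc2 had no value in unamplified cDNA and Rfc3 had values on arrays 1 and 2 only. Dnmt1, which copies methylation to the new strand, gave -0.71, -0.38, -0.56 and -0.72, a mean of -0.59 ± 0.16 (adjusted p = 0.00178, limma), and was called lower. None of the 5 nucleotide supply genes was called: Rrm2, the S phase subunit of ribonucleotide reductase, averaged -0.58 ± 0.23, Dut, which removes dUTP, -0.54 ± 0.31, and Rrm1, the large subunit of the reductase, 0.21 ± 0.09. Tyms and Tk1 had means of -0.11 and -0.16. None of the 3 cyclin E and E2F genes was called either, with Ccne2 at -0.76 ± 0.30, E2f1 at -0.57 ± 0.27 and Ccne1 at -0.42 ± 0.12, all of them below 0 on 4 arrays. Fen1 and Top2a averaged -0.42 and -0.50, and Lig1, the ligase that seals the lagging strand, 0.10 ± 0.23.

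Each of 5 genes was read by 2 probes, and in 3 of these 5 the probes disagreed in unamplified cDNA. Top2a, topoisomerase II alpha, gave -1.003 ± 0.20 with one probe and 0.01 ± 0.20 with the other. Mcm10, which joins the firing helicase, gave -0.61 ± 0.24 and 0.10 ± 0.14. Gins2 gave 0.80 ± 0.36 and -0.12 ± 0.07, so the averages of these genes hide opposite or unequal probes. The probes of Dnmt1 were nearer to each other, at -0.51 ± 0.18 and -0.68 ± 0.21, and in a fit by probe the second alone was called, while one probe of Mcm5 had a value on array 1 only.

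Further replication genes outside the list were counted in the same way. Of 59 such genes 47 had 4 values in unamplified cDNA, and 10 were called lower and 1 higher, with a median of -0.43, beside the 7.3% lower and 8.81% higher of all genes. Dbf4, the activator of the Cdc7 kinase that fires origins, averaged -1.75 ± 0.44, Ccna2, cyclin A2, -1.32 ± 0.18 and Chaf1a, a histone chaperone of the fork, -1.17 ± 0.15. Pold4, a small subunit of polymerase delta, was the 1 called higher at 0.61 ± 0.05. Of 38 mitotic genes with 4 values 18 were called lower and 1 higher, with a median of -0.74. Mki67, a marker of cycling cells, averaged -1.28 ± 0.28 and Cdk1, the mitotic kinase, -1.40 ± 0.26. The lists were not compared by a test.

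The genes kept fewer values after amplification, as did the genes of the array at large. Of the 44 genes, 35 had 4 values in SMART, 33 in SM37, 30 in GA and 27 in IVTIII from 10 ng, and 5 in SMART and 27 in GA from 10 pg, against 42 in unamplified cDNA. In that order the shares were 79.55%, 75%, 68.18%, 61.36%, 11.36%, 61.36% and 95.45%. Over all 15063 genes they were lower in every target: 49.16%, 38.37%, 36.23%, 26.37%, 7.694%, 29.38% and 67.62%. Only Mcm5 and Lig1 had 4 values in all 7 comparisons, and Ccne2 had no value in any of the 6 amplified comparisons of OV with 3T3. Calls were 0 lower and 0 higher in SMART, 7 and 1 in SM37, 3 and 0 in GA, and 6 and 2 in IVTIII from 10 ng, 1 and 0 in SMART and 0 and 0 in GA from 10 pg, against 11 and 0 in unamplified cDNA. Medians of the measured genes were -0.16, -0.38, -0.18 and -0.17 in SMART, SM37, GA and IVTIII from 10 ng, -0.16 and 0.07 in SMART and GA from 10 pg, and -0.49 in unamplified cDNA. The sets of measured genes differ between these medians.

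**Figure D2:**
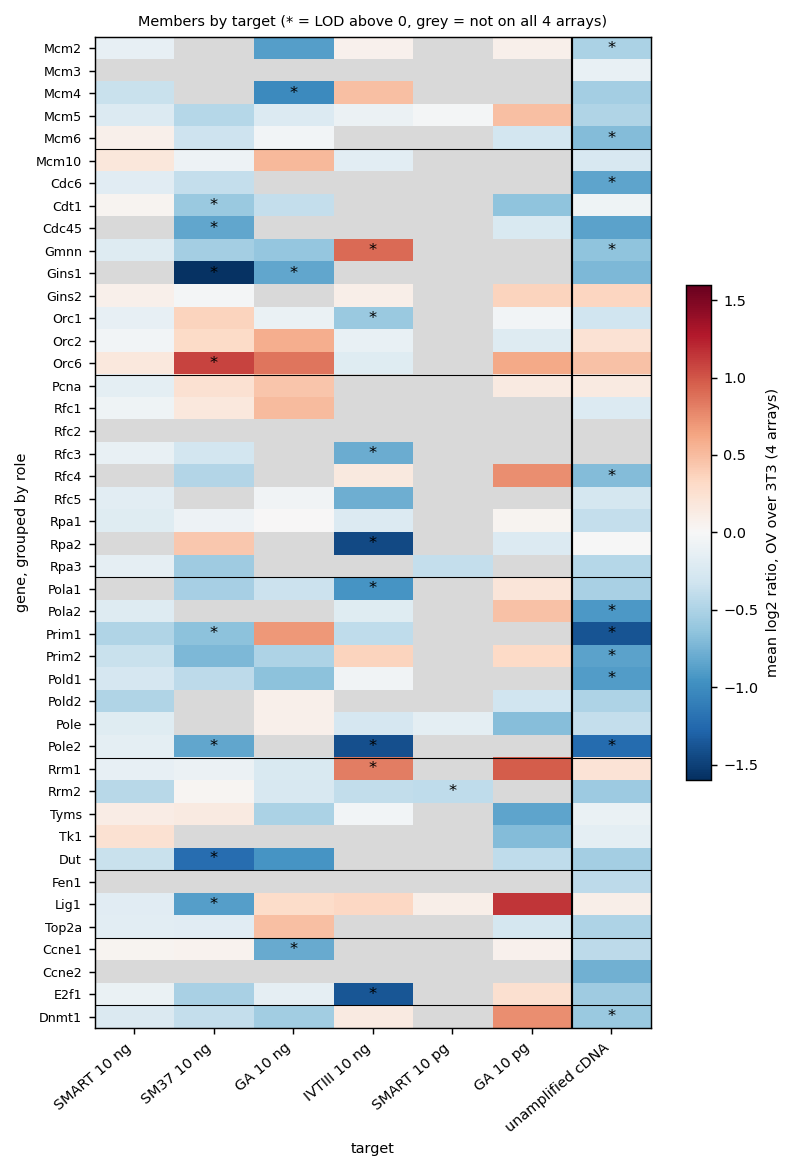
Mean log2 ratio of OV over 3T3 by gene (rows, grouped by role) and target (columns, amplified targets left and unamplified cDNA right); blue is lower in OV, red higher, grey is fewer than 4 values, and a star marks an LOD above 0. In unamplified cDNA 36 of 42 genes are below 0, and Pole2 is starred in SM37, IVTIII and unamplified cDNA.

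In SMART from 10 ng no gene was called, beside 1.01% of 7405 genes called lower and 2.53% called higher. Of the 35 means 27 (77.14%) were below 0, against 47.95% of all genes. At an unadjusted p under 0.05 limma gave 7 lower and 0 higher, and at an adjusted p under 0.05 it gave 3 lower and 0 higher, beside 2.42% and 4.65% of all genes. Without array 1 the LOD count was 3 lower. The lowest mean was that of Prim1, with arrays of -0.04, -0.40, -0.63 and -0.88 and a mean of -0.49 ± 0.36. Pold2, a small subunit of polymerase delta, averaged -0.48 ± 0.23 and Rrm2 -0.45 ± 0.15, with arrays of -0.42, -0.52, -0.26 and -0.60. All values of Prim1, Pold2 and Rrm2 were below 0. The 3 genes with an adjusted p under 0.05 were Pold2, Rrm2 and Prim2, of which Prim2 averaged -0.35 ± 0.11. Prim1 was not among them (adjusted p = 0.06225, limma).

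SM37 gave the largest count of genes called lower among the amplified targets, 7 of 33, and 1 called higher, beside 9.1% of 5779 genes called lower and 3.91% called higher. As a share of the genes tested this was 21.21%, and IVTIII had 22.22%. Gins1, a subunit of GINS, was lowest at -1.53, -1.42, -1.75 and -1.61, a mean of -1.58 ± 0.14 (adjusted p = 1.29e-04, limma). Dut gave -0.81, -1.15, -1.51 and -1.40, a mean of -1.22 ± 0.31. Every array of both was below -0.8. Lig1 averaged -0.88 ± 0.20, Pole2 -0.84 ± 0.30, Cdc45 -0.83 ± 0.28, Prim1 -0.65 ± 0.19 and Cdt1 -0.59 ± 0.15, all called lower. Orc6 was called higher with 0.81, 0.60, 1.73 and 1.17, a mean of 1.08 ± 0.50 (adjusted p = 0.00259, limma), and arrays 3 and 4 exceeded arrays 1 and 2. The call of Orc6 was lost with a dye term in the fit and without array 4, and those of Prim1 and Cdt1 with the dye term. The count of 7 fell to 3 without array 2 and to 3 without array 3. With the adjusted p as the rule 19 genes were lower and 4 higher, beside 25.8% and 17.2% of all genes.

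GA from 10 ng had 3 of 30 genes called lower and none higher, beside 6.14% of 5458 genes lower and 2.09% higher. They were Mcm4 with -0.96, -0.82, -1.08 and -1.25, a mean of -1.02 ± 0.18, Gins1 at -0.83 ± 0.15 and Ccne1, cyclin E1, at -0.81 ± 0.20. At an adjusted p under 0.05, 10 genes were lower and 5 higher, beside 17.4% and 10.5% of all genes, and at an unadjusted p under 0.05 the counts were 13 and 6. The call of Ccne1 was lost with a dye term, with arrays 1 and 2 and arrays 3 and 4 taken as random blocks, and without array 1, 3 or 4. The count of 3 fell to 1 without array 1 or without array 3 and stood at 3 without array 2, the array of uncertain label. Prim1 gave -0.31, -0.31, 1.44 and 1.97, with arrays 1 and 2 below 0 and arrays 3 and 4 above it. Orc6 gave 0.19, 0.34, 1.14 and 1.74, again with a gap between those pairs. Which arrays share an amplification is not given in the labels, but over all genes the deviations from the mean correlated with r of 0.410 between arrays 1 and 2 and 0.354 between arrays 3 and 4.

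IVTIII called 6 of 27 genes lower and 2 higher, beside 10.4% of 3972 genes lower and 11.6% higher. Rpa2, the middle subunit of RPA, gave -1.16, -1.29, -1.73 and -1.61, a mean of -1.45 ± 0.27 (adjusted p = 8.37e-05, limma). Pole2 gave -1.27, -1.49, -1.41 and -1.44, a mean of -1.40 ± 0.09, and E2f1 gave -1.19, -1.27, -1.67 and -1.32, a mean of -1.36 ± 0.21. Each array of the 3 genes was below -1.1. Pola1, the catalytic subunit of polymerase alpha, averaged -0.95 ± 0.25, Rfc3, another loader subunit, -0.80 ± 0.15 and Orc1, the ATPase of the origin complex, -0.60 ± 0.13. Gmnn was called higher with 0.81, 0.71, 0.85 and 1.27, a mean of 0.91 ± 0.25 (adjusted p = 4.61e-04, limma), and so was Rrm1 with 0.80, 0.90, 0.79 and 0.81, a mean of 0.82 ± 0.05. The call of Orc1 was lost with a dye term and without array 1, 2 or 4, and that of Pola1 without array 2. At an adjusted p under 0.05, 10 genes were lower and 5 higher, beside 26.6% and 29.3% of all genes. Cdc6, Cdc45, Mcm6, Pcna, Rfc1, Rfc2, Pold2, Tk1, Fen1 and Ccne2 had no value on any of the 4 arrays.

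From 10 pg little of the list was measured or called. SMART had 4 values for 5 genes, of which Rrm2 was called lower with -0.50, -0.27, -0.42 and -0.43, a mean of -0.41 ± 0.10, beside 2.93% of 1159 genes called lower and 6.04% called higher. That call was lost without array 1, without array 3 and without array 4. With the adjusted p 2 genes were lower and 0 higher, beside 14.9% and 18.4% of all genes. GA had 4 values for 27 genes and called none, beside 2.71% of 4426 genes lower and 2.73% higher, and at an unadjusted p under 0.05 limma gave 1 lower and 2 higher. The adjusted p gave 0 lower and 1 higher, beside 9.13% and 7.95% of all genes. The arrays of GA from 10 pg disagreed in pairs: Cdt1 gave -3.16, -0.90, 0.81 and 0.70, and Tyms, thymidylate synthase, -0.10, 0.01, -2.10 and -1.20. Their SDs were 1.86 and 0.996, against 0.12 and 0.03 in unamplified cDNA. Lig1 had the highest mean, 1.15 ± 0.43, with arrays of 0.76, 0.94, 1.15 and 1.75 all above 0.

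**Figure D3:**
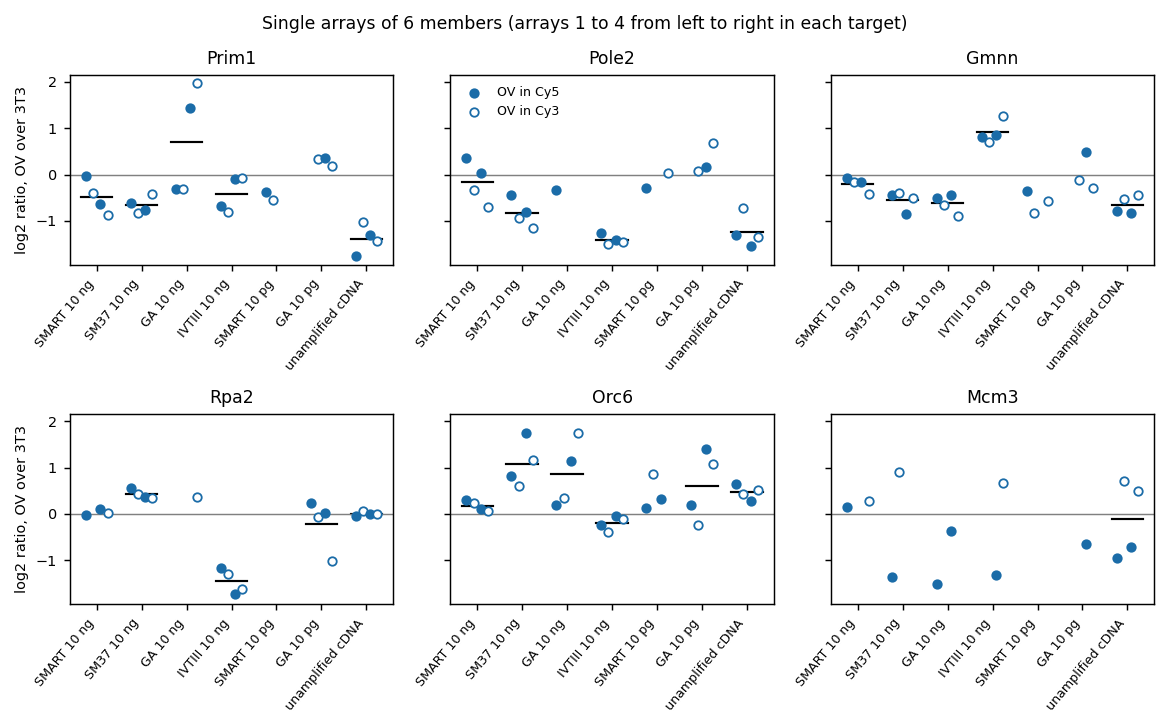
Log2 ratio of OV over 3T3 on each array for 6 genes and 7 targets (arrays 1 to 4 from left to right, filled with OV in Cy5, open with OV in Cy3, bars the means of 4 values). Pole2 stays near -1.4 in IVTIII and -1.2 in unamplified cDNA, Gmnn and Rpa2 move away from unamplified cDNA in IVTIII, and Mcm3 follows the dye except on array 1 of SMART.

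The difference between each amplified target and unamplified cDNA was then tested itself, on 4 against 4 arrays. These 6 tests share the same unamplified arrays. The study describes independent replicates with dye swaps, and the labels do not give which arrays share an amplification. Arrays of 1 amplification therefore counted as separate in these tests. In all, 154 differences were tested for 39 genes and 57 passed, 44 (28.6%) with a higher and 13 (8.44%) with a lower ratio in the amplified target, beside 13.2% higher and 17.4% lower of 25947 differences over all genes. The shares over all genes, here and by target below, are not matched for the ratio in unamplified cDNA. There the median was -0.49 over 42 genes of the list and -0.0038 over all genes. In 1 target or more 33 of the 39 genes (84.6%) passed, beside 54.9% of 8453 genes, which were not tested in the same number of targets. Prim1 passed in all 4 targets where it was tested, each time higher, and Mcm6, Pola2 and Prim2 passed in 3.

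**Figure D4:**
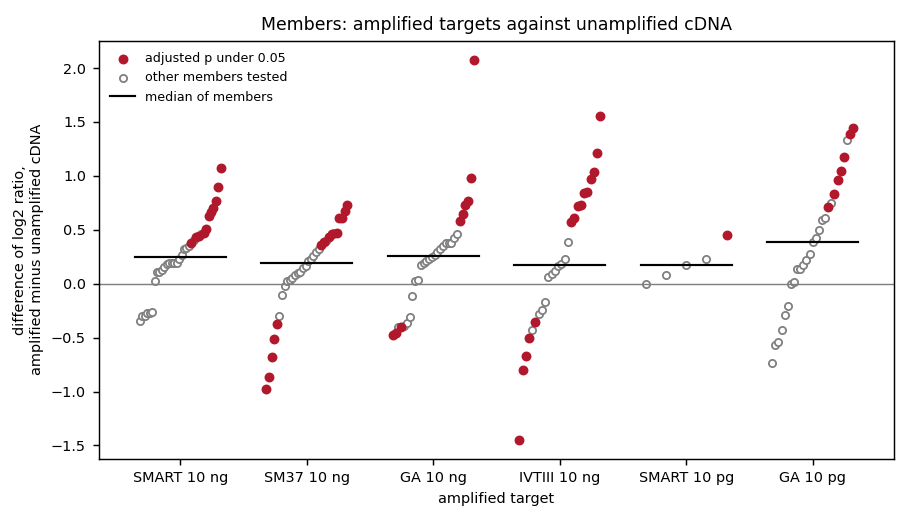
Difference of the mean log2 ratio, amplified target minus unamplified cDNA, for each gene with 8 values; red points passed an adjusted p of 0.05, open points did not, and bars are medians. Medians lie above 0 in every target, and red points below 0 are found in SM37, GA and IVTIII from 10 ng.

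SMART from 10 ng differed for 11 of 34 genes, all higher, beside 10.5% of 6626 genes lower and 7.55% higher; 4 were lower at an unadjusted p under 0.05. On these 34 genes the median was -0.16 in SMART and -0.47 in unamplified cDNA. Pole2 had the largest difference, 1.07 ± 0.23 (SE; adjusted p = 0.00801, limma), with -0.16 ± 0.46 in SMART and -1.23 ± 0.35 in unamplified cDNA. Mcm6 averaged 0.08 ± 0.16 in SMART and -0.69 ± 0.14 in unamplified cDNA (adjusted p = 0.00138, limma), with no overlap between the arrays. The others were Prim1 (difference 0.90), Pola2 (0.70), Cdc6 (0.67), Pold1 (0.63), Prim2 (0.51), Ccne1 (0.47), Gmnn (0.45), Mcm10 (0.43) and Mcm2 (0.38). For Mcm10 SMART measured 1 of the 2 probes that unamplified cDNA averages, and on that shared probe the difference was 0.07 and did not pass (adjusted p = 0.749, limma). The count of 11 was 7 without array 2 and 5 without array 3 of SMART, and 5 without array 1 and 6 without array 3 of unamplified cDNA.

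SM37 differed for 14 of 32 genes, 5 lower and 9 higher, beside 23.3% of 5256 genes lower and 14.6% higher. Lig1 had the largest, -0.98 ± 0.15 (SE; adjusted p = 5.94e-04, limma), with -0.88 ± 0.20 in SM37 and 0.10 ± 0.23 in unamplified cDNA. Gins1 (-0.86), Dut (-0.68), Cdt1 (-0.52) and Gins2 (-0.37) were also lower. The difference of Gins2 came from 1 of its 2 probes, at -0.80 (adjusted p = 0.00368, limma), while the other gave 0.05 (adjusted p = 0.751, limma). Orc1 averaged 0.35 ± 0.10 in SM37 and -0.32 ± 0.10 in unamplified cDNA, on opposite sides of 0 on all arrays. Prim1, Rrm2, Orc6, Ccne1, Cdc6, Rpa2, Rfc1 and Mcm6 were higher by 0.73 to 0.36. Without array 1 of unamplified cDNA the count was 8.

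GA from 10 ng differed for 9 of 30 genes, 3 lower and 6 higher, beside 14.3% of 5236 genes lower and 7.1% higher. Prim1 had the largest difference of all, 2.08 ± 0.48 (SE; adjusted p = 0.0148, limma), with 0.69 ± 1.19 in GA and -1.38 ± 0.30 in unamplified cDNA. The difference did not pass without array 1 of unamplified cDNA. Arrays 1 and 2 of Prim1 in GA lay apart from arrays 3 and 4, as given above. Top2a (0.98), Mcm10 (0.77), Rfc1 (0.73), Mcm6 (0.65) and Pold2 (0.58) were higher, and Mcm4 (-0.48), Rrm1 (-0.46) and Tyms (-0.40) lower. Top2a and Mcm10 each lacked 1 of their 2 probes on some arrays of GA. On the probe measured on all 8 arrays the difference was 0.07 for Top2a, which did not pass (adjusted p = 0.824, limma), and 0.48 for Mcm10, just inside the threshold. Without array 1 of unamplified cDNA the count was 4.

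IVTIII differed for 15 of 26 genes, 5 lower and 10 higher, beside 23.2% of 3714 genes lower and 25% higher. Gmnn averaged 0.91 ± 0.25 in IVTIII and -0.65 ± 0.19 in unamplified cDNA, a difference of 1.55 ± 0.15 (SE; adjusted p = 2.63e-05, limma). Rpa2 averaged -1.45 ± 0.27 in IVTIII and -0.0033 ± 0.0426 in unamplified cDNA, a difference of -1.45 ± 0.13 (adjusted p = 2.59e-05, limma). Neither gene had arrays that overlapped between the targets. Prim2 (1.21), Mcm4 (1.03), Prim1 (0.97), Rfc4 (0.85), Pold1 (0.84), Dnmt1 (0.73), Pola2 (0.72), Rrm1 (0.61) and Mcm2 (0.57) were higher, and E2f1 (-0.80), Orc6 (-0.67), Rfc5 (-0.50) and Orc2 (-0.35) lower. Pole2, the only gene called lower in both targets, was tested and its difference did not pass.

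From 10 pg SMART differed for 1 of 5 genes, Mcm5, which was higher by 0.45 ± 0.09 (SE; adjusted p = 0.00394, limma), beside 14.8% of 1113 genes lower and 19.9% higher; no gene was lower at an unadjusted p under 0.05 either, and without array 3 of SMART the count was 2. The fit without array 3 also took in genes lacking a value on that array alone. GA from 10 pg differed for 7 of 27 genes, all higher, beside 20.2% of 4002 genes lower and 15.7% higher, and 1 was lower at an unadjusted p under 0.05. They were Rfc4 (1.44), Pola2 (1.38), Prim2 (1.18), Lig1 (1.05), Mcm5 (0.96), E2f1 (0.83) and Pola1 (0.71). On the 2 GA replica arrays of OV RNA from 10 pg, with no difference between cells, Rfc4 gave 1.69 and 0.81. There Prim2 gave 0.77 and 0.44, Lig1 0.81 and 0.31, and E2f1 0.72 and 0.34. Pola2 gave -0.67 and -0.10, Mcm5 0.39 and 0.23, and Pola1 0.17 and 0.18. On the 1 probe of Mcm5 measured on all 8 arrays the difference was 1.604 (adjusted p = 0.0242, limma). That probe averaged 1.09 ± 1.09 in GA (SD, n = 4). The other probe of Mcm5 did not show a higher ratio: it averaged -0.13 ± 0.15 on the 4 arrays of GA. In unamplified cDNA it had a value on array 1 only, at -0.19. Prim2 averaged 0.31 ± 0.32 in GA and -0.86 ± 0.17 in unamplified cDNA. Without array 1 of GA the count was 16, but over more genes than these 27. That fit took in genes lacking a value on array 1 alone. Array 1 had values for 27 genes of the list, and arrays 2, 3 and 4 for 39, 40 and 39. In this target 4 of 6 OV markers had a mean below 0.

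Mcm3 stood apart because its ratio went with the dye. As deposited, Cy5 over Cy3, it was below 0 on 21 of the 22 arrays that measured it, with a mean of -0.74, whatever the samples. Its values were -1.36 and 0.91 on arrays 1 and 2 of SM37, and -1.31 and 0.67 on arrays 3 and 4 of IVTIII, turned to OV over 3T3. On the self-self array of IVTIII, with the same target in both dyes, it was -0.81 as deposited. Of 11669 genes with 20 arrays or more, 10 (0.0857%) had one sign as deposited on 95% of their arrays, and Mcm3 was the only one of the 42 replication genes among them. This measure was chosen after its values were seen. The exception was array 1 of SMART from 10 ng, at 0.15.

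Replica arrays showed how far the genes spread with no difference between cells. On the single replica array of unamplified cDNA the SD over 40 genes was 0.111, and on its self-self array 0.145 over 38 genes. For the mean of 2 replica arrays from 10 ng the SD over genes was 0.154 in SMART (37 genes), 0.306 in SM37 (10), 0.251 in GA (35) and 0.216 in IVTIII (31). Over all genes the SDs were 0.135, 0.355, 0.252 and 0.292 in the same order. The gene farthest from 0 was Gins1 at -0.36 in SMART, Ccne1 at 0.56 in SM37, and Prim1 at -0.92 in GA and at -0.61 in IVTIII. In GA the 2 arrays of Prim1 were 0.0022 and -1.84, so the second alone made up the mean.

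With less RNA the spread of SMART from 10 pg, 100 pg, 1 ng and 10 ng was 0.385, 0.178, 0.0695 and 0.154 (21, 36, 35 and 37 genes). That of GA was 0.601, 0.254, 0.312 and 0.251 at the same inputs (39, 29, 16 and 35 genes). The 10 pg targets were widest in both methods, while the order of the other inputs was not even. The descriptions of the SMART replicas from 1 ng say 100 pg, against their titles, which were followed. From 10 pg, 4 genes in GA and 1 in SMART lay beyond 1 in size, beside 11.1% and 0.604% of all genes. In GA Cdt1 gave 2.89 and 1.78, Rfc4 1.69 and 0.81, Mcm4 1.27 and 0.96, and Orc6 -1.93 and -0.75. In SMART Orc2 gave 1.68 and 0.40. At 100 pg the farthest were Dut at -0.84 in GA and Orc2 at 0.47 in SMART, and at 1 ng E2f1 at -0.80 in GA and Tyms at -0.16 in SMART.

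**Figure D5:**
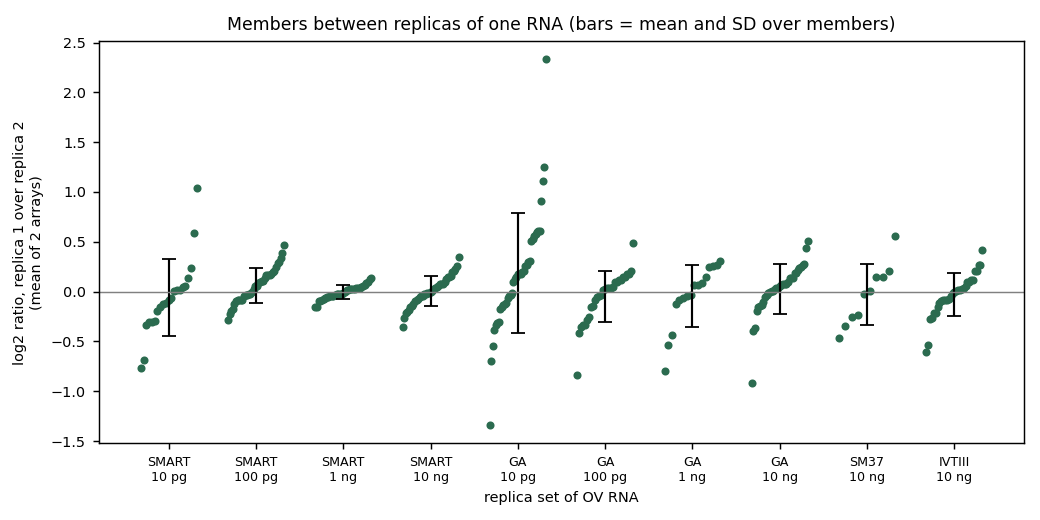
Log2 ratio of replica 1 over replica 2 of the same OV RNA, mean of 2 arrays, for each replication gene measured on both; bars are the mean and SD over genes, and inputs run from low to high within SMART and GA. Cdt1 at 2.33 in GA from 10 pg is the farthest point, and SMART from 1 ng is the narrowest set.

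In replicas of neural progenitor cells, whose pooled RNA was divided before amplification, the SD over genes was 0.388 in GA (38 genes) and 0.223 in SMART (30 genes), beside 0.359 and 0.182 over all genes. Rfc3 was farthest in GA, with 0.77 and 0.83, and Mcm4 in SMART, with 0.69 and 0.46.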

How the data were processed

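The deposited values were log2 ratios of Cy5 over Cy3 made by the authors in limma after background subtraction and print-tip lowess; the version was not given in the sources used here. The study's text gives the ratio in both directions, and Cy5 over Cy3 was followed. Of 21997 probes 231 controls were left out, 16632 of the rest had 1 gene symbol, 139 several and 4995 none. The sign of each array was set so that OV, or the first replica, was the numerator, and probes were averaged by gene in Python 3.11.15. In limma 3.58.1 (R 4.3.3), lmFit and eBayes with a prior proportion of 0.01 were fitted to genes with a value on all 4 arrays, and a gene was called at an LOD above 0. Differences from unamplified cDNA were fitted on 4 against 4 arrays, and called at a Benjamini-Hochberg adjusted p under 0.05 over all genes tested. The fits were tested on simulated data, and neither the settings nor the outcome are given here. Replica arrays were described without a test. Members and lists were chosen with earlier results of these data known. Named were the members called, those that differed from unamplified cDNA, the largest of each role group or replica set, and those never measured; others were named after their values were seen. Alternatives were the adjusted p, at least 3 of 4 arrays, a fit by probe, a dye term, centring, scaling, random and replicate blocks, and leaving out each array; the fit by probe of the differences was added after seeing the data.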

Additional observations from a re-analysis of the deposited data

Results flagged for a closer look

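Of 199 sets of 4 arrays tested for 1 array apart from the others, 11 (5.53%) had one, where chance gives about 1 in 20. In SMART from 10 ng they were Pole with an array at -0.69, Dut at -1.09 and E2f1 at -0.38. In SM37 they were Cdc6 at 9.61e-05, Orc1 at 0.51 and Dnmt1 at -0.14. Dnmt1 had an array at -1.21 in GA from 10 ng, and in IVTIII Rpa1 had one at -0.39 and Orc1 one at -0.40. That array of Dnmt1 had a value from 1 of its 2 probes, while the other arrays averaged both. On that probe arrays 1 to 4 were -0.74, -0.85, -0.75 and -1.21. Pold2 had an array at -0.80 in GA from 10 pg and Orc1 one at -0.47 in unamplified cDNA. Of these genes only Orc1 in IVTIII was called.

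In 11 of 154 differences (7.14%) all 4 arrays of an amplified target lay on the other side of 0 from all 4 arrays of unamplified cDNA and the difference passed limma's test, beside 7.02% of 25947 differences over all genes. The differences, amplified minus unamplified, were 0.67 for Orc1 in SM37, and 0.77 for Mcm10, 0.73 for Rfc1 and -0.46 for Rrm1 in GA from 10 ng. For Mcm10 the sign rests on averaging 2 probes in unamplified cDNA: the probe that GA measured on all arrays was at 0.13, 0.04, -0.04 and 0.29 there. In IVTIII they were 1.03 for Mcm4, 1.21 for Prim2, 1.55 for Gmnn and -0.67 for Orc6. In GA from 10 pg they were 1.44 for Rfc4, 0.71 for Pola1 and 1.18 for Prim2. The 6 tests share the arrays of unamplified cDNA.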

How the results depend on the processing

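One named difference changed sign: in a fit by probe of the differences, added after seeing the data, Gins2 in SM37 was 0.051 on 1 of its probes. No other named call or difference changed sign under the alternatives run, and that fit gave 12 differing genes in SMART, 16 in SM37, 8 in GA and 16 in IVTIII from 10 ng, and 1 in SMART and 8 in GA from 10 pg. At an adjusted p under 0.05 the genes lower in OV numbered 3 in SMART, 19 in SM37, 10 in GA and 10 in IVTIII from 10 ng, 2 in SMART from 10 pg and 31 in unamplified cDNA, in place of 0, 7, 3, 6, 1 and 11, and over all genes 2.42%, 25.8%, 17.4%, 26.6%, 14.9% and 24.8% were lower. With arrays scaled to an equal median absolute deviation there were 2 in SMART and 5 in GA from 10 ng and 17 in unamplified cDNA. A dye term gave 1 in SMART from 10 ng, and a random block of assumed dye-swap pairs gave 1 in SMART from 10 ng and 19 in unamplified cDNA. The dye term lost the calls of Prim1, Cdt1 and Orc6 in SM37, Ccne1 in GA and Orc1 in IVTIII, and the random block that of Ccne1 in GA. Leaving out 1 array gave 0 to 3 in SMART, 3 to 5 in SM37, 1 to 3 in GA and 4 to 6 in IVTIII from 10 ng, 0 to 1 in SMART from 10 pg, 0 in GA from 10 pg and 3 to 15 in unamplified cDNA. For differences from unamplified cDNA it gave 5 to 14 in SMART, 8 to 16 in SM37, 4 to 10 in GA and 13 to 16 in IVTIII from 10 ng, and 1 to 2 in SMART and 5 to 16 in GA from 10 pg. A fit without 1 array also took in genes that lacked a value on that array alone. These counts can therefore be over larger sets of genes than the main ones. Scaling gave 6 differences in SMART from 10 ng in place of 11 and 12 in GA from 10 pg in place of 7. Same-numbered arrays did not deviate together (r from -0.228 to 0.116), so the hybridization number pairs nothing; as a replicate block it gave 7 differences in SMART, 13 in SM37, 6 in GA and 16 in IVTIII from 10 ng, and 1 in SMART and 6 in GA from 10 pg. The cause of these shifts was not tested. Without single-spot signals, how far dim spots limit these ratios is unknown.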
